A study of Homo sapiens with 12 samples.

Results

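The results concern 7 stretches of the human genome, each 10000 bp long and read on 1 strand, that carry the names ORAI2, CYP20A1, RBMS2, TMEM120B, DNAL1, GJC1 and OPA3. They were chosen by their measured difference between 2 nucleases: sites protected from a nuclease that cuts single-stranded RNA were dense in them, and sites protected from a nuclease that cuts double-stranded RNA were absent. A site belongs to a window when its midpoint lies in it, and the strand of the gene is the one the selection names. The 7 windows were among 62797 stranded windows with at least 1 site and among 31432 with a site in at least 3 of 6 lists. They held 286 of 513381 sites on the strand of the gene, 110, 73 and 103 in the 3 single-strand lists and 0 in each double-strand list. Their opposite strand held 284 sites.

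The data came from protein interaction profile sequencing (PIP-seq), which reads out the stretches of RNA that bound protein shields from a nuclease. HEK293T is a line of transformed human embryonic kidney cells. In all 12 libraries the cells were fixed with 1% formaldehyde for 10 minutes, quenched with 125 mM glycine for 5 minutes, and the cross-links were later reversed at 65 degrees Celsius for 2 hours. The 4 groups of 3 libraries were footprints made with the single-strand nuclease (ssRNase, RNase ONE), footprints made with the double-strand nuclease (dsRNase, RNase V1), and a digestion control for each, in which SDS and proteinase K removed the protein ahead of the nuclease. The 12 libraries enter through 6 lists of protected sites, 3 per nuclease, each from 1 footprint and its control. Nothing in the labels says that replicates were grown apart, and the p-values reflect no more than the variation among these lists.

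Alu elements are short interspersed repeats of primate genomes that descend from 7SL RNA, the RNA of the signal recognition particle. They are common in introns and in long 3′ untranslated regions (UTRs). Copies in opposite orientation within 1 transcript can pair into a long duplex, which is a known substrate of ADAR adenosine deaminases, and many proteins that bind double-stranded RNA are known to contact such pairs. ORAI2 is a channel subunit of store-operated calcium entry, CYP20A1 a cytochrome P450 without a settled substrate, and RBMS2 an RNA-binding protein with RNA recognition motifs. TMEM120B is a transmembrane protein, DNAL1 a light chain of axonemal dynein, GJC1 a gap junction connexin, and OPA3 a mitochondrial protein whose mutation is known to cause optic atrophy.

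The name given to these windows, Alu-rich 3′ UTRs, was checked by searching the longest annotated 3′ UTR of each gene (GENCODE 29, GRCh38) for matches to 7SL RNA, a query of 299 nt. Matches were found in 6 of the 7 UTRs. In 5 of the 7 UTRs the matches lay in both orientations, which pairing within a transcript needs. How much Alu sequence the search missed was not measured, so an orientation without a match may still be present.

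The ORAI2 UTR, 9769 nt long, held 1516 bases (15.5%) of 7SL-like sequence in 9 stretches, 5 in the orientation of 7SL and 4 in the other. Of 19180 annotated 3′ UTRs, 0.0261% held as many 7SL-like bases. GJC1 (639 bases, 10.3% of 6179 nt) had 4 stretches in the orientation of 7SL and 2 in the other, and DNAL1 (596 bases, 7.65% of 7790 nt) had 3 and 3. TMEM120B (499 bases, 7.87% of 6340 nt) had 2 and 2. OPA3 (729 bases, 10.1% of 7233 nt) was lopsided, with 7 stretches against 1, and RBMS2 (350 bases, 4.96% of 7063 nt) had 3, all in the orientation opposite to 7SL. The CYP20A1 UTR in this annotation is 543 nt long and held no match. For CYP20A1 the name was therefore not borne out by the annotation used here.

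Long UTRs often carry such repeats. Among the 764 UTRs at least as long as the shortest of the 6 long ones, 35.6% had matches in both orientations and the median was 144.5 matching bases. Over all 19180 UTRs, 19.4% had any match and 4.20% had matches in both orientations. The 6 long UTRs thus held from 350 to 1516 matching bases beside a median of 144.5 in UTRs of their length.

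**Figure D1:**
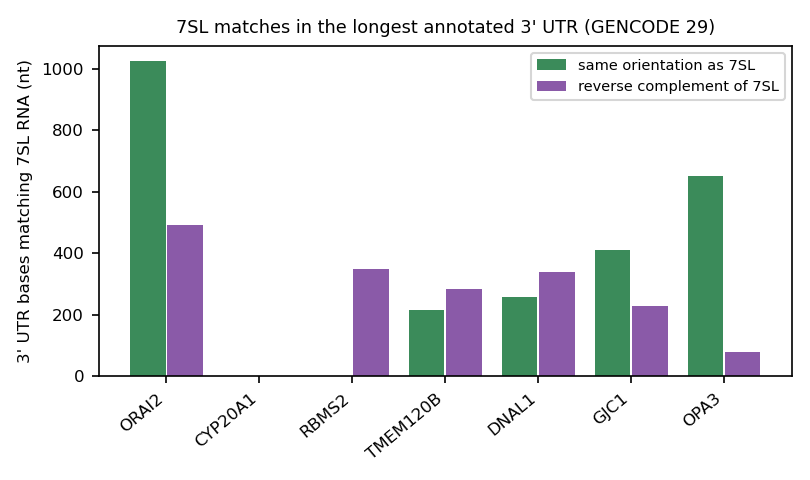
Bases of the longest annotated 3′ UTR that match 7SL RNA, in nt, for each gene, with the orientation of 7SL and its reverse complement as separate bars. ORAI2 has the most in either orientation together, RBMS2 has matches in the reverse complement only, and CYP20A1 has none in the UTR annotated for it.

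The amount of protection in a window is given as site bases, the summed length of the sites in it, and as their share per 1000000 of all site bases in the same list, which sets lists of different length side by side. The lists differed in length, with 209922, 57481 and 172079 sites for ssRNase against 23925, 28413 and 21561 for dsRNase. They carry no read counts, so the depth behind a site is unknown. How much RNA each gene supplied was not measured, and more RNA and more protection per RNA cannot be told apart.

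ORAI2 held the most ssRNase protection of the 7 (chromosome 7, plus strand, 102090001 to 102100000, build hg19). Its 22, 14 and 23 sites covered 1559, 861 and 1500 bases in ssRNase replicates 1, 2 and 3, which is 153, 295 and 185 per 1000000 and a mean of 211 ± 74.7 (SD, n = 3). CYP20A1 was next (chromosome 2, plus strand, 204160001 to 204170000), with 21, 11 and 18 sites, 1375, 719 and 1164 bases, and 175 ± 62.1 per 1000000 (SD, n = 3). In both windows every ssRNase list lay far above the dsRNase lists, all of which were at 0.

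DNAL1 (chromosome 14, plus strand, 74160001 to 74170000) had 15, 12 and 14 sites with 1108, 767 and 927 bases, or 162 ± 87.6 per 1000000 (SD, n = 3). OPA3 (chromosome 19, minus strand, 46050001 to 46060000) had 20, 9 and 20 sites with 1071, 656 and 1247 bases, or 161 ± 60.3 per 1000000 (SD, n = 3). These windows lay within 1 SD of each other and of CYP20A1.

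The other 3 had fewer sites. TMEM120B (chromosome 12, plus strand, 122210001 to 122220000) had 10 sites in each ssRNase list, with 945, 663 and 797 bases, and 139.5 ± 76.2 per 1000000 (SD, n = 3). RBMS2 (chromosome 12, plus strand, 56980001 to 56990000) had 11, 9 and 8 sites with 905, 640 and 837 bases, and 137 ± 71.7 per 1000000 (SD, n = 3). GJC1 (chromosome 17, minus strand, 42870001 to 42880000) had 11, 8 and 10 sites with 832, 613 and 938 bases, and 136 ± 66.7 per 1000000 (SD, n = 3). Neighbours in this order differed by less than their spread between lists.

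Replicate 2, the shortest ssRNase list, gave the fewest bases in every window and the highest share per 1000000. Summed over the 7 windows, the bases were 7795, 4919 and 7410 and the shares were 765, 1687 and 915 per 1000000. In all 7 windows the share was lowest in replicate 1, the longest list, so a longer list went with a lower share. The part of list length in the order of the replicates was not tested.

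All 3 ssRNase lists lay above all 3 dsRNase lists in all 7 windows, which the selection fixed. The same held in 40.1% of the 31432 windows tested. Across those windows, limma on log2(share + 20) called 26.6% higher with ssRNase and 7.04% higher with dsRNase at a Benjamini-Hochberg adjusted p of 0.05. A window can pass the filter with sites of 1 nuclease only, which fixes its direction. With a site required in at least 4 of 6 lists, 129 of 16100 windows were called higher with ssRNase and 702 higher with dsRNase. On that log2 scale the difference was 3.48 in ORAI2, 3.24 in CYP20A1, 3.13 in OPA3, 3.09 in DNAL1, 2.90 in TMEM120B, 2.88 in RBMS2 and 2.88 in GJC1. These are descriptions of selected windows and carry no test. They took ranks 1, 2, 4, 5, 7, 8 and 9 of 31432 by this difference, and ranks 3 and 6 went to windows outside the selection. The windows at ranks 10 and 11 had differences of 2.84 and 2.82.

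**Figure D2:**
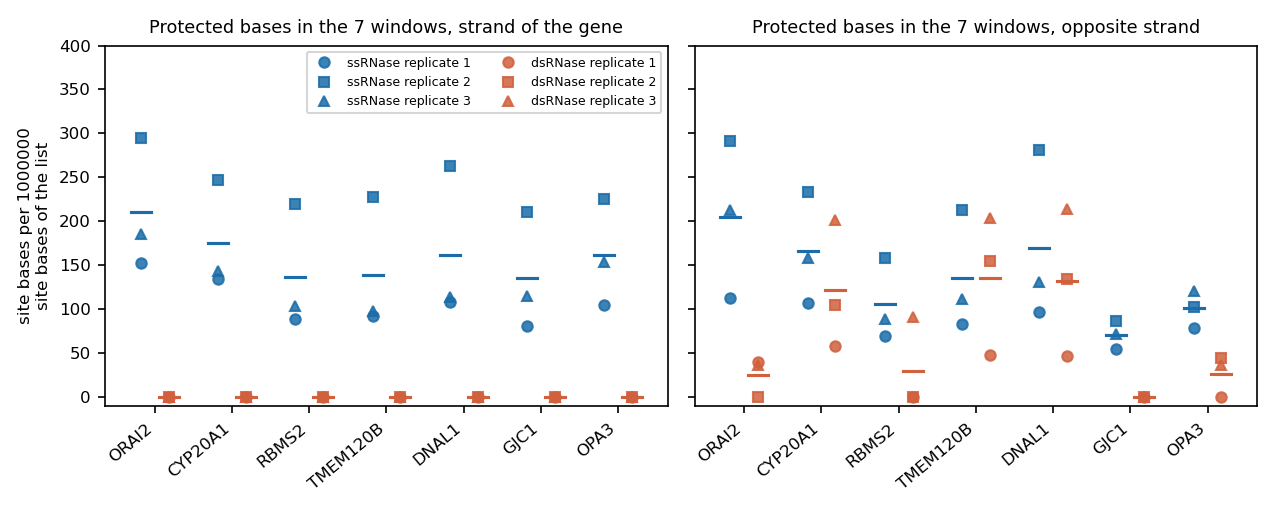
Share of site bases per 1000000 in each of the 6 lists for the 7 windows, on the strand of the gene (left) and on the opposite strand (right), with bars at the mean of 3 lists. On the left every dsRNase point is at 0 and ssRNase replicate 2 is highest throughout; on the right dsRNase points rise above 0 in 6 of the 7 windows.

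The protection sat in clusters inside the windows. The distance from the first to the last site base ran from 2376 nt in RBMS2 to 7544 nt in ORAI2, with 7215 in CYP20A1, 6775 in OPA3, 5621 in DNAL1, 4614 in TMEM120B and 2938 in GJC1. When ssRNase sites of either strand were joined over gaps of up to 200 nt, they formed 43 groups with a median extent of 282 nt. DNAL1 was the most regular, with 6 groups of 227 to 289 nt, and TMEM120B had 4 groups.

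In these 2 genes the groups could be set beside the 7SL matches of the UTR, joined in the same way. TMEM120B had 4 groups of matches, whose centres were 1239.5, 1845.5 and 1210 nt apart, and its site groups were 1171, 1900 and 1201.5 nt apart. DNAL1 had 6 groups of matches at successive distances of 914, 877.5, 781.5, 1982 and 803 nt, and its site groups were 1035, 824.5, 745.5, 2056.5 and 706 nt apart. In both genes the single wide gap came at the same place in the series. GJC1 had 6 groups of each kind, but its distances did not run in parallel: 1111, 693.5, 877.5, 825.5 and 412.5 nt between matches and 644.5, 398.5, 466, 505 and 630.5 nt between site groups. ORAI2 had 8 groups of matches and 9 of sites, OPA3 8 and 7, and RBMS2 3 and 4. Only distances were compared, since the UTR positions and the sites belong to different genome builds, and TMEM120B and DNAL1 were singled out after these distances were seen.

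**Figure D3:**
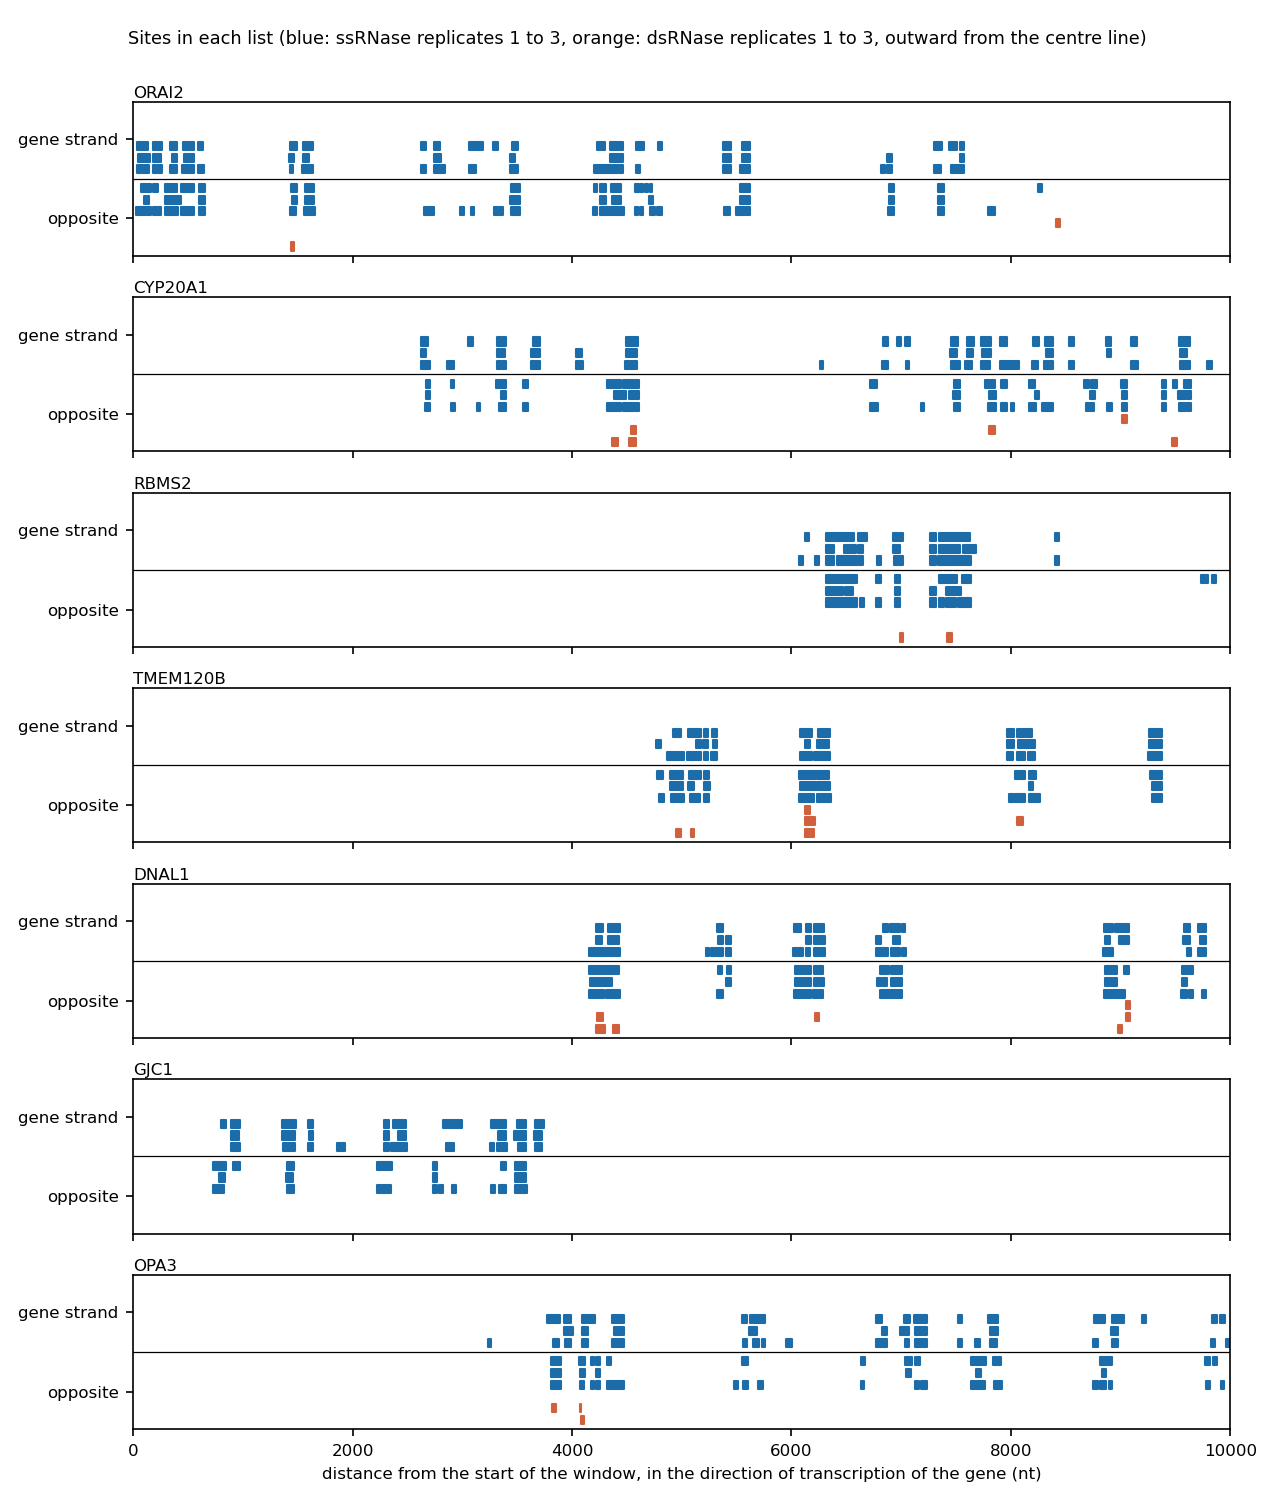
Every site of the 6 lists in the 7 windows, by distance in nt from the start of the window in the direction of transcription, with the strand of the gene above each centre line and the opposite strand below it. Blue sites cluster at the same places above and below the line in TMEM120B and DNAL1, and all orange dsRNase sites lie below the line.

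The same bases recurred in the 3 ssRNase lists. Of 9430 bases covered on the strand of the gene in any ssRNase list, 4033 (42.8%) were covered in all 3. RBMS2 had the highest share of bases common to the 3 lists, 53.7%, then GJC1 (51.2%), TMEM120B (51.0%), ORAI2 (42.0%), DNAL1 (41.4%) and CYP20A1 (37.9%), and OPA3 had the lowest, 31.0%. The median was 16.1% over the 25223 other windows that every ssRNase list marked and 17.8% over the 476 of them that reached at least the lowest mean share of the 7. All 7 windows lay above both medians.

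Single sites recurred as well. Of the sites of ssRNase replicate 1 in the windows, 61.8% overlapped a site of replicate 2 and 81.8% a site of replicate 3, beside 22.5% and 48.6% of its other sites. For replicate 2 the shares were 94.5% with replicate 1 and 90.4% with replicate 3, beside 82.6% and 74.7%. For replicate 3 they were 85.4% with replicate 1 and 63.1% with replicate 2, beside 59.7% and 25.0%. Replicates 1 and 3 overlapped the short replicate 2 list less than they overlapped each other, inside the windows and outside. The other sites were matched neither for length nor for the density of sites around them, and the selection favoured both.

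There were 64 stretches covered in all 3 ssRNase lists, from 28 to 118 nt long with a median of 56 nt and a median spacing of 322.5 nt. The longest of each window had nearly the same length. It was 118 nt in ORAI2 (chromosome 7, 102094345 to 102094462), 115 nt in RBMS2 (chromosome 12, 56987423 to 56987537) and 113 nt in TMEM120B (chromosome 12, 122219263 to 122219375). In GJC1 it was 109 nt (chromosome 17, 42878528 to 42878636), in CYP20A1 108 nt (chromosome 2, 204164489 to 204164596), in DNAL1 108 nt (chromosome 14, 74164326 to 74164433) and in OPA3 107 nt (chromosome 19, 46052766 to 46052872). Among the 476 other windows of at least that mean share, the median longest stretch was 71.5 nt and 84 (17.6%) reached 107 nt.

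Overlapping sites of the lists were joined into merged sites. The longest was in RBMS2, 285 nt from 56986312 to 56986596 on chromosome 12, built from 5 sites, and replicate 3 alone had a site of 252 nt there. In GJC1 the longest merged site was 174 nt (42877002 to 42877175), in TMEM120B 153 nt (122214871 to 122215023), in DNAL1 145 nt (74164296 to 74164440), in ORAI2 136 nt (102094332 to 102094467), in OPA3 122 nt (46056108 to 46056229) and in CYP20A1 117 nt (204164485 to 204164601). RBMS2 thus had the longest merged site although its span was the shortest. Replicates 1 and 2 had separate sites with a gap in that region, so the unbroken extent comes from joining the lists.

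Sites in the windows were longer than other sites of the same list. The median length was 60, 64 and 62 nt in the 3 ssRNase lists, beside 43, 44 and 42 nt for all other sites, a difference of 19.0 ± 1.73 nt (SD, n = 3 lists, two-sided exact sign-flip permutation test, p = 0.25). With 3 lists 0.25 is the smallest p this test can give. The selection added up site bases, so long sites helped a window to be chosen. Within replicate 3, GJC1 had the longest sites, with a median of 84.0 nt, and OPA3 the shortest, with 51.0 nt.

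The score that the authors deposited with each site was also high. It has no stated scale and was used as a rank within a list. The median member site stood at percentile 75.5, 62.8 and 78.6 of its list, beside 50.1, 49.5 and 50.9 for other sites. The difference was 22.1 ± 7.77 points (SD, n = 3 lists, exact sign-flip permutation test, p = 0.25, the smallest possible). Scores were not compared among sites of like length. RBMS2 in replicate 3 was highest, at percentile 93.8, and ORAI2 in replicate 2 lowest, at 53.6. Each of the 7 windows had its median above 50 in every list.

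The opposite strand of the windows was protected as well. Summed over the 7 windows, its ssRNase site bases were 79.2%, 81.0% and 97.9% of those on the strand of the gene, a mean of 86.0 ± 10.3% (SD, n = 3). By window, DNAL1 had the highest mean percentage, 104%, followed by TMEM120B (98.9%), ORAI2 (95.8%), CYP20A1 (94.8%), RBMS2 (79.1%) and OPA3 (66.6%), and GJC1 had the lowest, 57.1%. Of the 476 other windows with as high an ssRNase share, 112 (23.5%) had opposite-strand sites in all 3 ssRNase lists, and their median opposite-strand level was 0% of their own. From the mean shares, the lowest of the 7 windows had 52.5% on its opposite strand, a level that 38 (7.98%) of the 476 reached. The opposite strand was not used in the selection.

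The sites of the strands faced each other. A site was counted as facing when it shared at least 1 base with a site of the same list on the other strand. In replicates 1, 2 and 3, 64 of 110, 37 of 73 and 76 of 103 member sites faced a site, which is 58.2%, 50.7% and 73.8%, beside 7.10%, 11.6% and 8.60% of the other sites. The means were 60.9 ± 11.8% and 9.10 ± 2.30% (SD, n = 3 lists, two-sided exact sign-flip permutation test, p = 0.25, the smallest possible). Each list had at least 39.1 percentage points more facing sites in the windows than elsewhere. Outside the windows, long sites faced another more often than all sites did in each list, and the reason was not tested. Among sites at least as long as the median member site, 75.0%, 54.1% and 86.8% faced a site in the windows, beside 21.8%, 34.8% and 30.5% elsewhere.

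**Figure D4:**
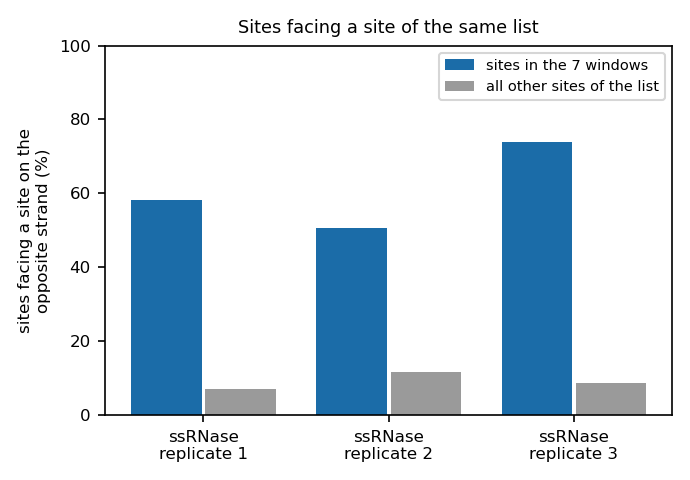
Percentage of sites of each ssRNase list that share at least 1 base with a site of the same list on the opposite strand, for sites in the 7 windows and for all other sites. Bars for the windows reach 50.7% to 73.8% and bars for the other sites 7.10% to 11.6%.

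DNAL1 had the highest percentages in replicates 2 and 3, with 73.3%, 75.0% and 92.9% of its sites facing another in the 3 lists. TMEM120B had 8, 5 and 9 of its 10 sites in the 3 lists, ORAI2 68.2%, 57.1% and 82.6%, and RBMS2 54.5%, 66.7% and 75.0%. GJC1 (54.5%, 25.0% and 60.0%), CYP20A1 (42.9%, 45.5% and 55.6%) and OPA3 (45.0%, 22.2% and 65.0%) had fewer, yet each lay above the value for other sites in its list. Over the bases covered in any ssRNase list, 83.4% of those of DNAL1 and 82.6% of those of TMEM120B were covered on both strands, with 70.8% for RBMS2, 70.6% for ORAI2, 47.8% for CYP20A1, 45.1% for OPA3 and 42.3% for GJC1. In GRCh38 a gene on the other strand is annotated over the UTRs of the 4 windows with the highest of these percentages: AC006146.1 for DNAL1, RHOF for TMEM120B, BAZ2A for RBMS2 and ALKBH4 for ORAI2. None is annotated over the UTRs of GJC1 and OPA3, or over the short one of CYP20A1. A gene was counted when its span shared any base with the UTR, and its place relative to the sites was not checked. The part of these genes in the coverage of both strands was not tested. The stretches covered in all 3 lists were faced most in DNAL1 (96.1% of their bases) and RBMS2 (94.7%) and least in GJC1 (55.5%) and OPA3 (56.3%).

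The dsRNase lists, at 0 on the strand of the gene, were not at 0 on the other. They held 4, 9 and 13 sites there, 26 in all, in every window except GJC1. These sites were from 3 to 93 nt long with a median of 44 nt. Of the 26, 24 overlapped an ssRNase site of their own strand, 21 faced an ssRNase site on the strand of the gene, and 9 recurred in another dsRNase list. The same shares over all dsRNase sites were not computed, so these counts describe the 26 sites only. Selection for dense ssRNase sites on the strand of the gene also favoured facing.

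The test between nucleases could be made on the opposite strand. ORAI2 rose with ssRNase there: the opposite-strand share was 113, 291 and 213 per 1000000 in the ssRNase lists and 40.1, 0 and 36.3 in the dsRNase lists, a log2 difference of 2.38 (SE 0.54, limma adjusted p = 0.0216). GJC1 had 55.4, 86.4 and 72.2 against 0 in every dsRNase list, a log2 difference of 2.18 (SE 0.19, limma adjusted p = 0.00454). The GJC1 window entered the test only through the ssRNase lists, so the filter fixed its direction, and its size depends on the added 20. The 2 calls among 7 windows are close to the 26.6% called over all windows. All ssRNase lists lay above all dsRNase lists in 3 of the 7 windows, ORAI2, GJC1 and OPA3, beside 40.1% of all windows.

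TMEM120B had nearly equal opposite-strand means, 136 ± 68.5 with ssRNase and 136 ± 79.5 with dsRNase (SD, n = 3), and the lists overlapped. CYP20A1 (166 ± 63.7 and 122 ± 73.0) and DNAL1 (169.7 ± 97.8 and 132 ± 83.4) overlapped as well. For RBMS2 the means were 106 ± 46.5 and 30.5 ± 52.8, with 2 dsRNase lists at 0 (limma adjusted p = 0.119), and for OPA3 101 ± 20.9 and 27.1 ± 23.8 (limma adjusted p = 0.0577). Without ssRNase replicate 2 or replicate 3 the ORAI2 window missed the threshold (limma adjusted p = 0.0772 and 0.0766). RBMS2 passed without dsRNase replicate 3 (limma adjusted p = 0.0201) and OPA3 without dsRNase replicate 1 or 2 (limma adjusted p = 0.0437 and 0.0431). RBMS2 also passed with the better-scoring 50% of sites (log2 difference 3.09, limma adjusted p = 0.00291), and OPA3 with a pseudocount of 100 (limma adjusted p = 0.0406). With all lists, ORAI2 was thus the only window with dsRNase sites on the opposite strand that passed the threshold, and a p above it does not show equal levels elsewhere. Whether the contrast between nucleases differs between the strands was not tested, since the selection used it on 1 strand.

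In the flanks of the windows there was little ssRNase protection on the strand of the gene. The 7 windows were selected for dense ssRNase sites, so lower values beside them follow in part from the selection. Of the 70 windows that flank the 7, 5 on each side, 43 held no site in any list and the highest ssRNase mean was 24.6 per 1000000, beside 136 in the lowest of the 7. That highest flank was the window just upstream of GJC1. In all, 12 flanks had sites in all 3 ssRNase lists and 5 had a dsRNase site.

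Of the 14 flanks that could be tested, limma called 7 higher with ssRNase and 0 higher with dsRNase, beside 26.6% and 7.04% of all windows, and 9 had an unadjusted p under 0.05. All 7 lacked dsRNase sites and so entered the test only through the ssRNase lists, which leaves their direction fixed by the filter. They were the third window upstream of ORAI2 (log2 difference 0.82, limma adjusted p = 0.020), the second downstream of ORAI2 (0.55), the third downstream of TMEM120B (0.71), the second downstream of DNAL1 (0.86), the first upstream of GJC1 (1.09), the fourth upstream of OPA3 (0.92) and the first downstream of OPA3 (0.61). Their adjusted p-values lay between 0.012 and 0.046. The number called was 1 without dsRNase replicate 1, 2 without dsRNase replicate 2, 1 without dsRNase replicate 3 and 4 without ssRNase replicate 3.

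**Figure D5:**
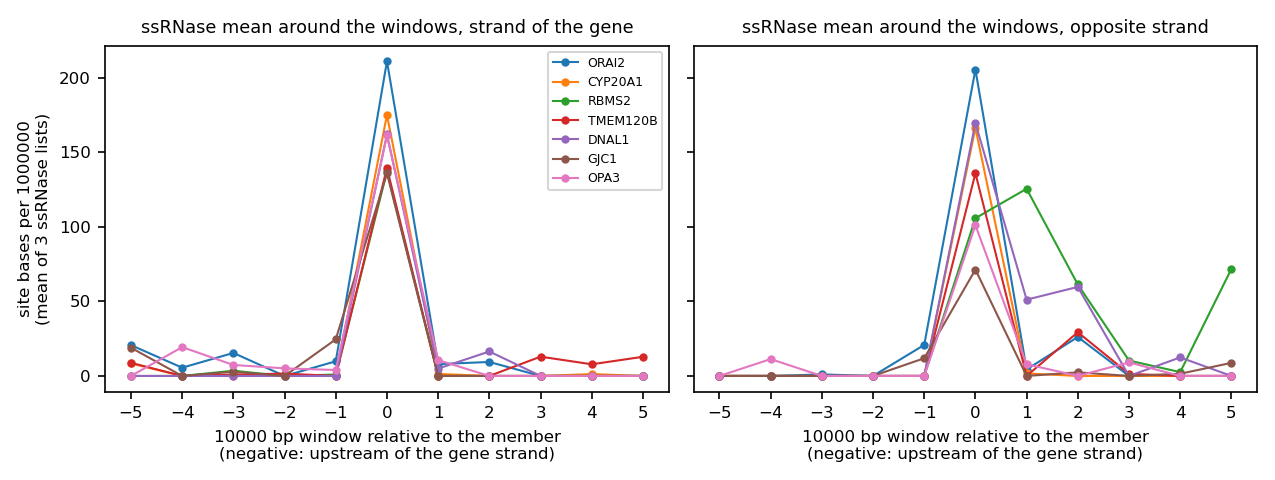
Mean site bases per 1000000 over the 3 ssRNase lists in each window (0) and the 5 windows of 10000 bp on either side, on the strand of the gene (left) and on the opposite strand (right). On the left every flank lies at or below 24.6; on the right the first and second flank downstream reach 126 and 61.4 for RBMS2 and 51.2 and 59.7 for DNAL1.

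The 5 other windows nearest to the mean profile of the 7 over the 6 lists were at log2 distances of 0.46 to 0.70, while the 7 themselves lay at 0.19 to 0.71. A window on chromosome 12 (plus strand, 19520001 to 19530000) had 30 of 42 ssRNase sites facing a site, one on chromosome 17 (minus strand, 30650001 to 30660000) 16 of 28, and one on chromosome 1 (plus strand, 26140001 to 26150000) 12 of 36. On chromosome 16 the windows at 2120001 to 2130000 (plus strand) and 21520001 to 21530000 (minus strand) had 0 of 43 and 1 of 43. A like profile over the lists thus came with facing sites in 3 of these 5 windows and with almost none in the other two.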

How the data were processed

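Sites were deposited by the authors as lists with a strand, hg19 positions and a score per site, whose scale is not stated; positions were read as 1-based. Adapters were trimmed with cutadapt 0.9.5 and reads aligned with TopHat2 2.0.9 to hg19, per the submitters' processing notes, and a duplex-specific nuclease evened out the libraries, per the labels. Site calling used CSAR at a false discovery rate of 5%, per the names of the deposited lists. How reads that match several repeat copies were placed is not stated in the labels or files. A list merged over both nucleases was not used.

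From the lists, site bases per 1000000 were summed by site midpoint in stranded windows of 10000 bp. Windows with a site in at least 3 of 6 lists were fitted with limma 3.58.1 (R 4.3.3) on log2(share + 20), with Benjamini-Hochberg adjustment over 31432 windows and a threshold of 0.05. Differences on that scale understate low windows. Other values came from scipy 1.17.1, pandas 2.3.3 and numpy 2.4.6 under Python 3.11.15, with figures by matplotlib 3.10.9. Scripts were tested on simulated data. UTR sequences came from GENCODE 29 (GRCh38), and 7SL matches from BLAST 2.17.0 (word size 11, E value 1e-5). No position was converted between builds, and the matching sequences are not reported here.

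The windows and all lists were chosen with earlier results of these data known. The facing measure, the stretches common to 3 lists, the joining of sites into groups and the 7SL search were chosen after seeing the data. Named are the 7 windows, up to 10 flanks past the threshold, the 5 windows nearest to the mean profile, the longest common stretch and merged site of each window, and dsRNase sites by counts where over 5. The alternatives were other pseudocounts, filters, scalings, site borders and scores, a replicate block, and each list left out in turn.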

Additional observations from a re-analysis of the deposited data

How the results depend on the processing

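Of 96 values recomputed for the main results under other settings, 76 were kept, 20 moved and 0 changed direction. Counts of called windows, which have no direction to change, are among the 96. The opposite-strand differences of single windows are not among them, and those of TMEM120B and DNAL1 changed sign under some settings, as given below. Counts that moved by over 1.5 times are given here, as are levels that moved by over 1 SD. The lists carry no read counts, so depth limits what a missing site means. The windows higher with ssRNase numbered 8349 of 31432, and 129 of 16100 with a site required in at least 4 of 6 lists. They numbered 5028 with a pseudocount of 100 and 0 with a replicate block (5729 to 10104 leaving out 1 list). Those higher with dsRNase numbered 2214, and 702 with the filter of 4 lists and 0 with the block (1470 to 2458 leaving out 1 list, the lowest without ssRNase replicate 3). Of 14 flanks, 7 were called, against 1 with a pseudocount of 100, 0 of 3 with the filter of 4 lists, 4 with the better-scoring 50% of sites and 0 with the block (1 to 9 leaving out 1 list). Of the opposite-strand windows 2 were called, against 1 with the filter of 4 lists and 0 with the block (1 to 3 leaving out 1 list).

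With the replicate block in limma, 11366 windows had an unadjusted p under 0.05, 5 flanks and 4 opposite-strand windows among them, and the smallest adjusted p was 0.0513, that of GJC1. ORAI2 had 0.0706. With the filter of 4 lists 0 of the 3 flanks had an unadjusted p under 0.05. The replicate numbers did not pair the lists: deviations of same-numbered lists correlated at 0.017, -0.063 and -0.034, and no list correlated best with its own number.

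The median log2 difference of the 7 windows, 3.09, was 4.94 with a pseudocount of 5 and 1.34 with 100, as the added constant sets it. With the filter of 4 lists it had no value, since these windows have sites in 3 lists. The opposite-strand difference of RBMS2, 1.77, was 3.09 with the better-scoring 50% of sites (limma adjusted p = 0.00291), and that of OPA3, 1.52, was 0.68 with a pseudocount of 100 (limma adjusted p = 0.0406). The opposite-strand difference of TMEM120B, 0.08, was -0.12 with numbers of sites and ran from -0.43 to 0.42 leaving out 1 list, being -0.26 without ssRNase replicate 2 and -0.43 without dsRNase replicate 1. That of DNAL1, 0.38, ran from -0.12 to 0.77, being -0.02 and -0.12 without the same lists. Apart from the pseudocounts and filters named here, the cause was not tested.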

Other observations

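On the opposite strand, windows downstream of RBMS2 and DNAL1 were protected too. In RBMS2 they did not directly continue the sites inside the window. There the opposite-strand sites ran up to 7632 nt from its start, and the next began at 9737 nt, in ssRNase replicate 1 only. In GRCh38 the gene on the strand opposite the RBMS2 UTR is BAZ2A, a subunit of a nucleolar chromatin remodelling complex. The first 10000 bp downstream of the RBMS2 window had opposite-strand means of 126 site bases per 1000000 with ssRNase and 126 with dsRNase. The next 10000 bp had 61.4 and 112. Past them the means fell to 10.3 with ssRNase and 0 with dsRNase (57010001 to 57020000). They were then 2.56 and 0 (57020001 to 57030000), so the protection was not continuous. In the fifth window downstream (chromosome 12, minus strand, 57030001 to 57040000) dsRNase was higher, at 597, 426 and 890 against 86.2, 60.0 and 69.2 with ssRNase, a log2 difference of -2.79 (ssRNase minus dsRNase, limma adjusted p = 0.00503). Downstream of DNAL1 the opposite-strand means were 51.2 and 53.8 in the first window and 59.7 and 94.6 in the second. These windows were picked after their values were seen. Whether the protection at 57030001 to 57040000 lies on the same transcript as that opposite the RBMS2 UTR was not tested.

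Only 1 of the 476 other windows with as high an ssRNase share (0.210%) also lacked every dsRNase site. The selection used both properties and the cut is the lowest mean of the 7, so this count is a description. Just below the cut, a window on the plus strand of chromosome 1 (26140001 to 26150000) had a mean of 127 and no dsRNase site. The window at rank 3 by the difference between nucleases, which has no place among the 7, is on the plus strand of chromosome 19 at 58350001 to 58360000, with a log2 difference of 3.14.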
